A study of Mus musculus with 2 samples.

Results

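Lymphatic endothelial cells were examined among all cells deposited for the lungs of newborn mice, including the cells rich in mitochondrial transcripts that a mitochondrial limit would remove. A cell was taken as lymphatic when it carried at least 3 unique molecular identifiers (UMIs) summed over Ccl21a, Prox1 and Mmrn1 and no UMI of Ptprc, the pan-leukocyte surface phosphatase CD45, or Epcam, an epithelial adhesion molecule. By this gate, 68 of 9944 cells were taken as lymphatic, which is 0.684% (95% exact binomial interval 0.531 to 0.866). Batch 1 held 26 of 2389 cells (1.09%, 0.712 to 1.59) and Batch 2 held 42 of 7555 cells (0.556%, 0.401 to 0.751). Of the 68, 49 (0.493% of all cells) lay below every cut-off for another cell type given below. The others may not all be lymphatic. The intervals here and elsewhere cover counting error only, not the variation between mice. The samples were 2 Drop-seq libraries of whole lung from wild-type (wt) C57BL/6J mice at postnatal day 1 (PND1), 1 mouse per batch, with no treatment and no other genotype or age. In Drop-seq each cell is captured in a droplet with a barcoded bead, and each transcript gets the barcode of its cell and a UMI, so that copies of 1 molecule are counted once. The libraries held 4434206 and 23263012 UMIs, with a median of 1387 UMIs per cell in Batch 1 and 1999 in Batch 2, at least 500 genes in every cell, and no cell barcode in common.

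Lymphatic endothelium lines the vessels that drain fluid, lipid and immune cells from tissues back to the veins. The transcription factor Prox1 specifies and maintains this fate in venous endothelial cells, and the receptor Flt4 (VEGFR3), with its ligand Vegfc, drives lymphatic growth. Lymphatic cells attract dendritic cells and T cells through the chemokine Ccl21, and in the lung of the newborn they take part in clearing the airspaces of fetal fluid.

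Most of the gate's UMIs came from Ccl21a, a gene with near-identical copies. In the gated cells of Batch 1 and Batch 2, respectively, the files held 1058 and 874 UMIs of Ccl21a, 960 and 815 of Gm13304, 983 and 785 of Gm21541, 133 and 146 of Gm10591, and 112 and 146 of Ccl21b. All these copies lie on chromosome 4 (GRCm38). Ccl21a lies at chr4:42772860-42773993 on the minus strand, and on the plus strand lie Ccl21b at chr4:42255767-42256432, Gm10591 at chr4:42612195-42612860, Gm13304 at chr4:42114817-42115917 and Gm21541 at chr4:41903610-41904743. Each has 4 exons and a coding sequence of 402 bases, and each of the 4 copies differs from Ccl21a at 2 of these (99.5% identity). The same substitutions are found in all 4 copies, T84A in codon 28 and C194T in codon 65, with the base of Ccl21a first and positions counted from 1 at the A of the start codon. The coding windows around both substitutions, from GENCODE transcripts of GRCm38, are shown because they are the only coding letters by which a read of Ccl21a differs from one of a copy, and the codon that differs is in capitals.
Ccl21a, coding bases 70 to 96 (chr4:42773735-42773761, minus strand): agtgatggagggGGTcaggactgctgc
Ccl21b (chr4:42255924-42255950, plus strand): agtgatggagggGGAcaggactgctgc
Gm13304 (chr4:42115016-42115042, plus strand): agtgatggagggGGAcaggactgctgc
Ccl21a, coding bases 190 to 216 (chr4:42773521-42773547, minus strand): ttcTCAccccggaagcactctaagcct
Ccl21b (chr4:42256138-42256164, plus strand): ttcTTAccccggaagcactctaagcct
Gm13304 (chr4:42115230-42115256, plus strand): ttcTTAccccggaagcactctaagcct
Gm10591 and Gm21541 carry the same windows as Ccl21b and Gm13304. Over the whole transcript Gm13304 differs from Ccl21a at 5 of 837 aligned bases and Gm21541 at 6 of 870. After the stop codon the annotation holds 393 bases for Ccl21a, Gm13304 and Gm21541 and 0 for Ccl21b and Gm10591. The libraries were made from the 3' end of the cDNA, so many reads may lie outside the windows shown. What set the split of UMIs among these genes was not tested. The Ccl21a value is therefore uncertain as a value of 1 gene, and the UMIs of the copies were used neither for the gate nor in any count of genes below.

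The cells were chosen by the counts of the gate genes, so the values of these genes are a description and carry no test. Ccl21a was counted in 60 of the 68 cells (24 of 26 in Batch 1 and 36 of 42 in Batch 2), Mmrn1, a glycoprotein, in 57 (20 and 37), and Prox1 (chr1:190118035-190170714, minus strand) in 34 (11 and 23). All 3 genes were counted in 28 cells. Ccl21a alone reached the minimum in 56 cells, Mmrn1 alone in 44 and Prox1 alone in 19. Ccl21a gave 89.5% of the gate's UMIs in Batch 1 and 73.9% in Batch 2. The gate sum had a median of 49 UMIs in Batch 1 (3 to 121) and 21.5 in Batch 2 (3 to 85), so that most cells lay well inside the threshold. Just inside it, 11 cells had 3 to 5 gate UMIs and 5 of them had Flt4. Just outside it, 13 cells had 2 gate UMIs and 0 of them had Flt4. Of cells with 1 gate UMI, 2 of 26 in Batch 1 and 10 of 75 in Batch 2 had Flt4. Of the 57 cells with 6 or more, 44 had Flt4. A further 4 cells of Batch 2 had enough gate UMIs but carried Ptprc or Epcam.

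Other lymphatic genes were counted in most of the cells, read in the same cells and thus no independent draw. At least 1 UMI of Flt4, Reln, Thy1, Nrp2 or Tbx1 was present in 61 of the 68 cells, 23 in Batch 1 and 38 in Batch 2. Flt4 (chr11:49609263-49652739) was found in 13 of 26 and 36 of 42 cells, against 1.32% and 4.87% of cells with no gate UMI. Thy1, a small surface glycoprotein, was found in 8 of 26 and 22 of 42 cells, against 0.0943% and 0.0714%. Lyve1, a hyaluronan receptor, was found in 19 of 26 and 40 of 42 cells, but also in 25.4% and 40.0% of cells with no gate UMI. The gated cells were deeper than those others, with median UMIs of 2744 against 1325 in Batch 1 and 3863.5 against 1759 in Batch 2, and a deeper cell has more UMIs in which a gene can be seen. Single gated cells ranged from 819 to 11667 UMIs in Batch 1 and from 789 to 15364 in Batch 2.

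Cells of the group differed widely from each other in single genes. Ccl21a had a median of 136 UMIs per 10000 UMIs of a cell in Batch 1 and 58.4 in Batch 2, with maxima of 654 and 350. Mmrn1 had medians of 6.22 and 12.9, and Flt4 of 0.693 and 7.59. Lyve1 had medians of 13.7 and 76.9. Nrp2, a co-receptor of Flt4, had medians of 3.12 and 6.45, and Reln, a large secreted glycoprotein, of 0.429 and 3.71. Ccl21a thus had the higher median in Batch 1 and the other 5 had the higher median in Batch 2. With 1 mouse per batch, mouse and library cannot be told apart, and the batches were not compared by a test.

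**Figure D1:**
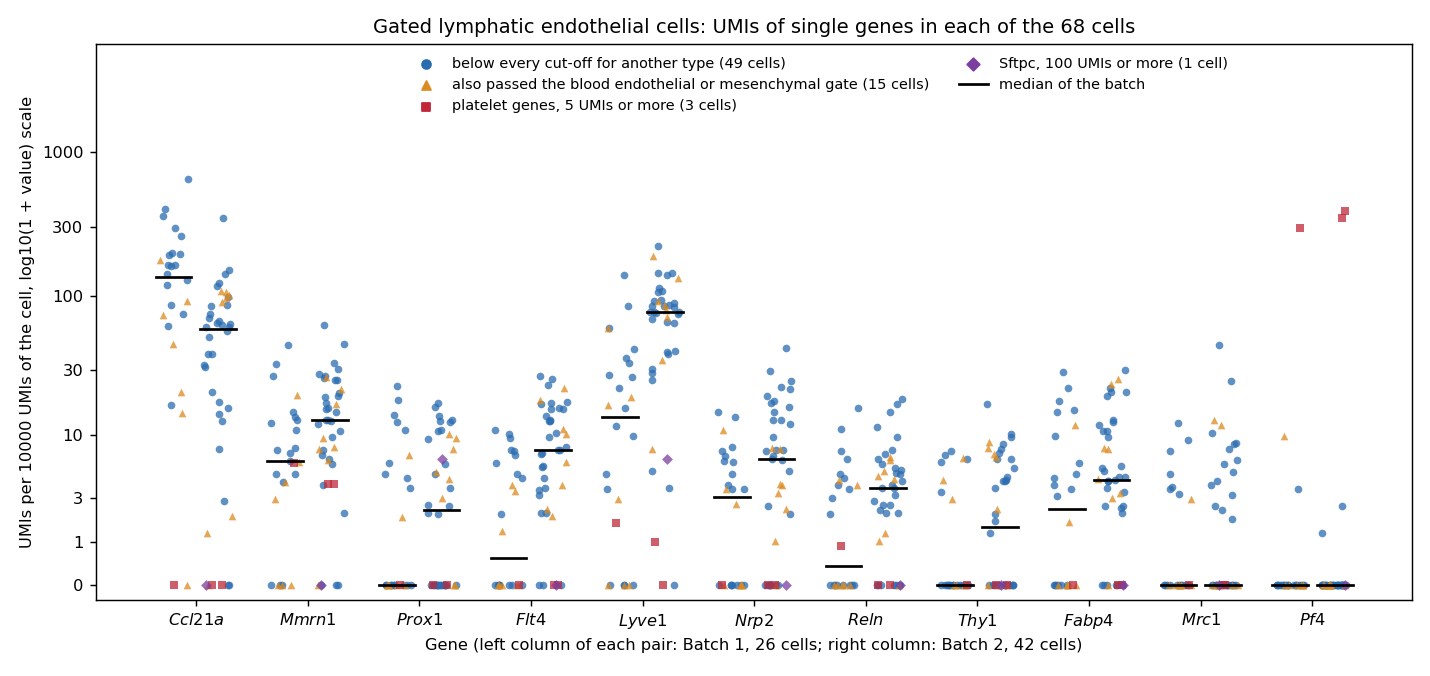
Levels of 11 genes in the 68 lymphatic cells, as UMIs per 10000 UMIs of each cell on a log10(1 + value) axis, with Batch 1 (26 cells) in the left column and Batch 2 (42 cells) in the right column of each gene, and a bar at the median. Colours mark the 49 cells below every cut-off for another type and the cells that also passed the blood endothelial or mesenchymal gate (15), had at least 5 UMIs of platelet genes (3) or at least 100 UMIs of Sftpc (1); Ccl21a reaches 654 and Pf4 is high in the 3 platelet-gene cells alone.

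Some of the cells passed a cut-off for another cell type. The blood endothelial gate was also passed by 12 cells (4 in Batch 1 and 8 in Batch 2), the mesenchymal gate by 3 cells of Batch 1, and the macrophage gate by 0. A further 3 cells carried genes of platelets and megakaryocytes, with 346, 392 and 258 UMIs of Pf4, the platelet chemokine, and 1 cell of Batch 2 carried 476 UMIs of Sftpc, surfactant protein C of the alveolar type 2 cell. The 3 platelet-gene cells met the lymphatic gate through Mmrn1 alone (7, 4 and 3 UMIs), with 0 UMIs of Ccl21a, Prox1 and Flt4. The cell with Sftpc met it through 3 UMIs of Prox1 alone. The 3 cells past the mesenchymal gate met it through Ccl21a alone (4, 4 and 5 UMIs), with 0 UMIs of Flt4 and Lyve1. The other 49 cells (18 and 31) passed no other gate and lay under 5 UMIs of the platelet genes and 100 UMIs of Sftpc, but were not free of such genes, since Sftpc was counted in 8 of the 18 and 23 of the 31, and Pf4 in 1 and 2. Of these 49 cells, 47 had Flt4, Reln, Thy1, Nrp2 or Tbx1. The 12 listed platelet genes summed to 79.0 and 56.6 UMIs per 10000 in the lymphatic cells of Batch 1 and Batch 2, against 0.474 and 0.296 in blood endothelium, and their median per lymphatic cell was 0. Each comparison is therefore given with all 68 cells, and its counts also with the 49 cells. C1qa, a complement gene of macrophages, was at 0 in every lymphatic cell. The lymphatic gate had already left out cells with Ptprc. This 0 and the 0 cells past the macrophage gate are therefore partly set by the choice of cells. Hba-a1, a hemoglobin gene of red cells, and Sftpc were counted in 26 and 13 of the 26 lymphatic cells in Batch 1 and in 35 and 32 of the 42 in Batch 2. No doublet caller was run.

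Genes were compared with 3 other classes of cells from the same mice. Blood endothelial cells (443 and 1565 in Batch 1 and Batch 2) had at least 3 UMIs over Emcn, Plvap, Sox17, Tmem100 and Gpihbp1, mesenchymal cells (1087 and 1834) at least 5 over Col1a1, Col1a2, Col3a1 and Mfap4, and macrophages (32 and 76) at least 3 over C1qa, C1qb and C1qc. Blood endothelial and mesenchymal cells also had no UMI of Ptprc or Epcam. Macrophages had no UMI of Epcam and could carry Ptprc. UMIs were summed by class and batch, giving 96476 and 184101 UMIs for the lymphatic cells, and 8947 genes were tested with edgeR's quasi-likelihood test with the batch as a block. Levels are given as UMIs per 1000000 UMIs of the class (CPM), Batch 1 first. Differences are log2 fold changes ± standard error, lymphatic minus the other class, and higher or lower means an adjusted p under 0.05 over all 8947 genes. The classes were cut from the same counts by their own markers, and the p-values measure how well a difference repeated in 2 mice, not a test of the class itself.

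Against blood endothelium 513 genes were higher (5.73% of those tested) and 476 lower (5.32%) in the lymphatic cells. Against mesenchymal cells 809 were higher (9.04%) and 894 lower (9.99%), and against macrophages 628 were higher (7.02%) and 590 lower (6.59%). The median difference over all genes was -0.15, -0.20 and 0.07. With the 49 cells below the cut-offs, 8998 genes could be tested, and 302 (3.36%) and 506 (5.62%), 520 (5.78%) and 772 (8.58%), and 484 (5.38%) and 564 (6.27%) were called. Of the genes first called higher, 268 of 513, 471 of 809 and 442 of 628 were called again, and of those called lower, 377 of 476, 640 of 894 and 478 of 590. In the sum over all 3 comparisons 170 genes were higher than in every other class, 99 of which stayed so with the 49 cells, and 31 were lower than in every other class, 21 of which stayed so. The other classes share the lymphatic sums as the common side, so that these overlaps are counts and no tests.

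**Figure D2:**
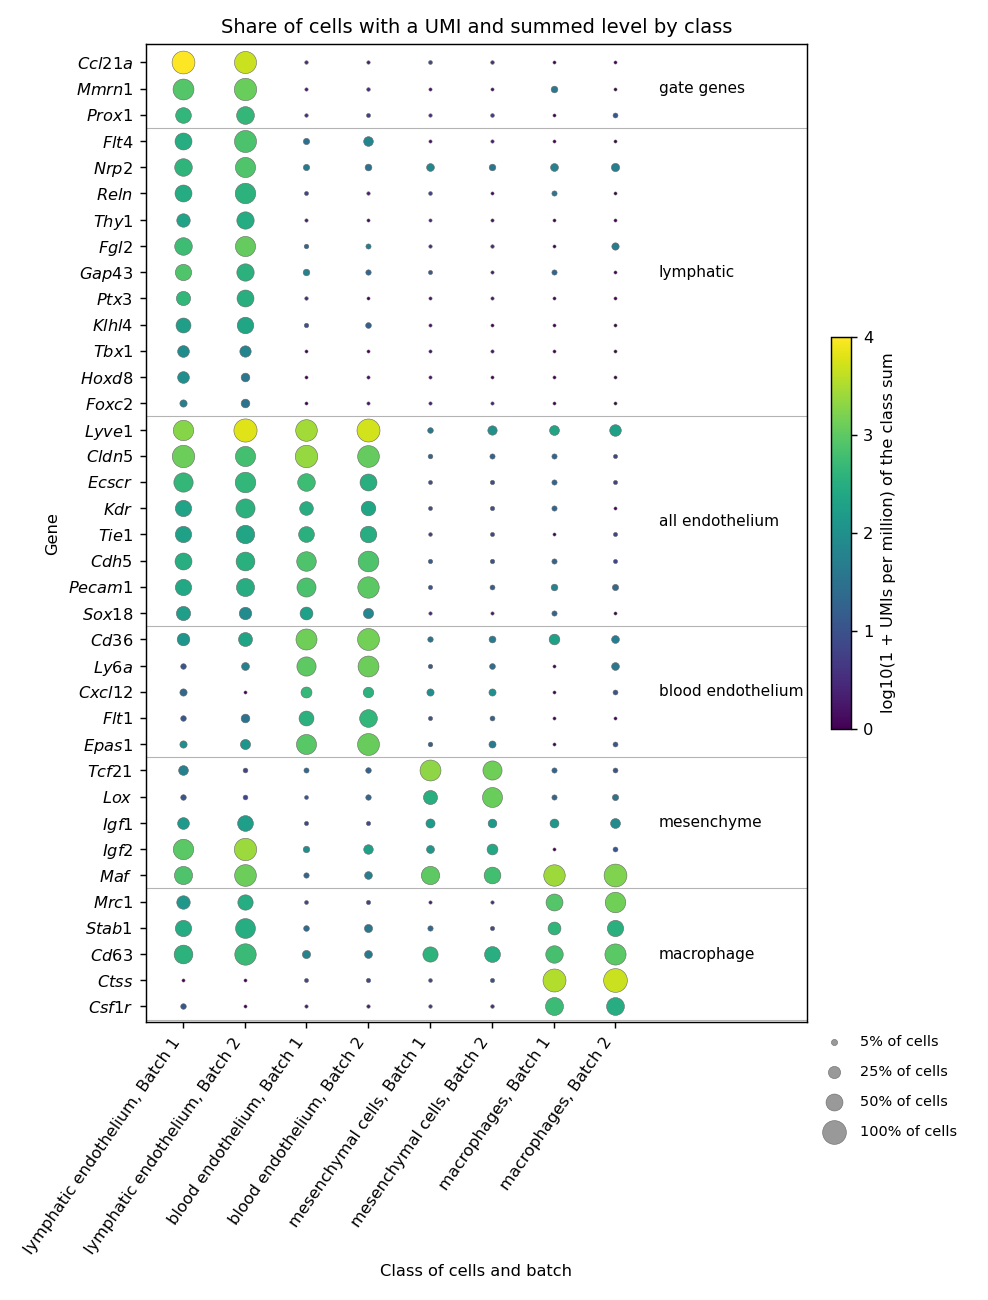
Genes of the gate, of lymphatic cells, of all endothelium, of blood endothelium, of mesenchyme and of macrophages in the 4 classes and both batches, with dot size for the percentage of cells in which the gene was counted and colour for log10(1 + CPM). Flt4 stands at 311 and 738.7 CPM in lymphatic cells and at 0 in macrophages, Mrc1 at 134.7 and 293.3 in lymphatic cells and at 848.7 and 1337 in macrophages, and Lyve1 is high in both endothelia.

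Transcription factors of the lymphatic fate were higher than in each of the other classes in part. Of 14 tested factors of a list of 17, 6 were higher and 2 lower than in blood endothelium, 10 higher and 1 lower than in mesenchyme, and 7 higher and 2 lower than in macrophages, with median differences of 0.91, 4.10 and 2.88. Tbx1, a T-box factor that acts upstream of Flt4 in lymphatic growth, stood at 82.9 and 65.2 CPM (8 and 12 UMIs) and at 0 in blood endothelium in both batches, at least 25.1-fold and 104.9-fold lower there (adjusted p = 3.27e-06). In mesenchyme it was at 0.595 and 0.79 CPM (difference 6.26 ± 0.89, adjusted p = 1.11e-05). Hoxd8, a homeobox factor of lymphatic endothelium, stood at 93.3 and 38.0 CPM against 0 and 0.414 in blood endothelium (6.71 ± 1.05, adjusted p = 5.01e-05). Foxc2, the forkhead factor of lymphatic valves, had 5 and 6 UMIs, or 51.8 and 32.6 CPM, against 0 and 0.621 (5.94 ± 1.08, adjusted p = 0.000336), and was too low to be tested in the 49 cells. These 3 factors were nearly absent from blood endothelium, and each rested on few UMIs in the lymphatic cells.

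Nr2f2 (COUP-TFII), the venous factor that works with Prox1, was higher than in blood endothelium but not than in mesenchyme. In lymphatic cells Nr2f2 stood at 373.1 and 380.2 CPM against 129 and 114.1 in blood endothelium (1.55 ± 0.27, adjusted p = 0.000197), and at 675.2 and 543.5 in mesenchyme (-0.89 ± 0.26, adjusted p = 0.0171, and adjusted p = 0.327 with the 49 cells). Maf, a leucine zipper factor, stood at 767 and 1271 CPM against 18.75 and 46.17 in blood endothelium (4.75 ± 0.35, adjusted p = 3.84e-10). Against mesenchyme, where Maf was at 999.4 and 616 CPM, it did not pass (0.12 ± 0.30, adjusted p = 0.834), and macrophages had 2620 and 1655 (-1.06 ± 0.31, adjusted p = 0.0211, and adjusted p = 0.122 with the 49 cells). Sox18, which induces Prox1, did not pass against blood endothelium (165.8 and 81.5 against 179.8 and 67.9, -0.02 ± 0.38, adjusted p = 0.983) and was higher than in mesenchyme (6.29 ± 0.59). Lmo2, a cofactor of blood and vessel development, was higher than in blood endothelium (238.4 and 163 against 90.4 and 74.3, 1.16 ± 0.34, adjusted p = 0.027). The 2 factors of the list that were lower than in blood endothelium were Gata2, required for lymphatic valves (103.7 and 152.1 against 281.2 and 730.8, -2.05 ± 0.34, adjusted p = 8.27e-05), and Klf4, a flow-responsive factor (186.6 and 119.5 against 794.1 and 1346, -2.97 ± 0.35, adjusted p = 7.55e-07).

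Receptors and growth signals differed from blood endothelium in both directions, with Flt4 and Nrp2 higher and Flt1, Nrp1 and Tek lower. Of 29 tested genes 7 were higher and 11 lower than in blood endothelium, 16 higher and 4 lower than in mesenchyme, and 17 higher and 1 lower than in macrophages (medians -0.74, 2.24 and 4.48). Flt4 stood at 311 and 738.7 CPM in lymphatic cells, at 27.6 and 66.0 in blood endothelium (3.39 ± 0.33, adjusted p = 5.78e-08), at 0.595 and 1.05 in mesenchyme (9.05 ± 0.49, adjusted p = 1.47e-12), and at 0 in macrophages (adjusted p = 5.31e-08), where the lymphatic level was at least 5.62-fold and 44.9-fold higher. Nrp2 (chr1:62703285-62818695) stood at 393.9 and 782.2 CPM against 39.7 and 29.2 in blood endothelium (4.11 ± 0.38, adjusted p = 1.36e-08), and was higher than in mesenchyme (3.37 ± 0.37) and macrophages (3.45 ± 0.50). Kdr (VEGFR2), the main receptor of blood vessel growth, did not pass against blood endothelium (207.3 and 358.5 against 306.6 and 235, 0.02 ± 0.33, adjusted p = 0.982). Flt1 (VEGFR1), which traps Vegfa, was lower (10.4 and 32.6 against 355.1 and 431.5, -4.17 ± 0.46, adjusted p = 3.38e-07), as was the co-receptor Nrp1 (82.9 and 65.2 against 729 and 497.1, -3.12 ± 0.39, adjusted p = 1.58e-06). Of the 3 VEGF receptors, 1 was thus higher, 1 lower and 1 on both sides of the blood endothelial level.

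Angiopoietin and ligand genes split in the same comparison. Angpt2, which supports lymphatic remodelling, was at 72.6 and 81.5 CPM against 13.2 and 11.6 in blood endothelium (2.60 ± 0.59, adjusted p = 0.00324). Its receptor Tek (TIE2) was lower (72.6 and 65.2 against 301.1 and 388.4, -2.46 ± 0.38), and the partner receptor Tie1 did not pass (186.6 and 222.7 against 339.7 and 307.2, -0.74 ± 0.31, adjusted p = 0.142). The ligand Vegfc was at 0 and 5.43 CPM in lymphatic cells and at 77.2 and 91.9 in blood endothelium (-4.68 ± 0.90, adjusted p = 0.000642). Figf (Vegfd) was at 10.4 and 5.43 CPM against 107.7 and 98.8 in mesenchyme (-4.01 ± 0.73, adjusted p = 0.000221). Of the ligands of Flt4, Vegfc was thus lower than in blood endothelium and Figf lower than in mesenchyme.

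Guidance and adrenomedullin receptor genes moved both ways. Calcrl and Ramp2, which form the adrenomedullin receptor needed for lymphatic growth, were lower than in blood endothelium, Calcrl at 145.1 and 103.2 against 1321 and 1034 CPM (-3.35 ± 0.31, adjusted p = 1.48e-08) and Ramp2 at 621.9 and 918 against 2174 and 2535 (-1.70 ± 0.23, adjusted p = 4.24e-06). Both were higher than in mesenchyme, by 2.39 and 3.35. Sema3d, a secreted semaphorin, was higher than in blood endothelium (51.8 and 119.5 against 2.21 and 0.414, 6.76 ± 0.81, adjusted p = 1.39e-06), as were Sema3a (3.28 ± 0.86, adjusted p = 0.0114) and Unc5b, a netrin receptor (82.9 and 222.7 against 35.3 and 19.9, 2.59 ± 0.49, adjusted p = 0.000489). Tgfbr2, the TGF-beta receptor, stood at 207.3 and 124.9 against 52.9 and 24.2 in blood endothelium (2.09 ± 0.39, adjusted p = 0.000435) and did not pass against mesenchyme (-0.01, adjusted p = 0.988). Jag1, a Notch ligand, was at 0 in both batches of lymphatic cells and at 43.0 and 73.7 CPM in blood endothelium (adjusted p = 0.00118), at least 4.52-fold lower in Batch 2.

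Genes of the vessel wall, junctions and valves were higher than in the non-endothelial classes in most cases. Of 31 tested genes 14 were higher and 6 lower than in blood endothelium, 17 higher and 2 lower than in mesenchyme, and 21 higher and 0 lower than in macrophages (medians 0.75, 1.94 and 4.67). With the 49 cells, 11 were higher and 6 lower than in blood endothelium, and the median moved from 0.75 to -0.01. Reln (chr5:21884454-22344702), which lymphatic endothelium secretes towards smooth muscle, stood at 290.2 and 374.8 CPM in lymphatic cells, at 5.51 and 1.24 in blood endothelium (7.09 ± 0.63, adjusted p = 7.84e-09), at 4.76 and 0.263 in mesenchyme and at 36.9 and 0 in macrophages. Gja1, a connexin of lymphatic valves, was higher than in blood endothelium (155.5 and 342.2 against 35.3 and 14.5 CPM, 3.54 ± 0.46). Itga9, the integrin of valve leaflets, was higher (93.3 and 163 against 5.51 and 13.3, 3.56 ± 0.51, adjusted p = 1.2e-05), as was Celsr1, a planar polarity cadherin of valves (41.5 and 38.0 against 2.21 and 1.66, 4.17 ± 0.93, adjusted p = 0.00303). Fn1, whose fibronectin binds that integrin, was higher than in blood endothelium (238.4 and 70.6 against 22.1 and 16.2, 2.69 ± 0.39) and lower than in mesenchyme (848.3 and 552.5, -2.55 ± 0.32, adjusted p = 1.22e-06). These 3 valve genes were thus above blood endothelium, and Fn1 lay between blood endothelium and mesenchyme.

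Surface and junction markers were less uniform. Pdpn, the mucin podoplanin, was higher than in blood endothelium (114 and 141.2 against 18.8 and 5.80 CPM, 3.68 ± 0.53, adjusted p = 1.25e-05) but was counted in only 10 of 26 and 15 of 42 cells. Lyve1 (chr7:110850607-110863239, minus strand) stood at 1907 and 6442 CPM in lymphatic cells and 2833 and 5234 in blood endothelium, with each class the higher in 1 batch (-0.19 ± 0.23, adjusted p = 0.711), and was higher than in mesenchyme (5.65 ± 0.28) and macrophages (221.4 and 191.8 CPM, 4.30 ± 0.32). Cldn5, the tight junction claudin of endothelium, was lower than in blood endothelium (1275 and 635.5 against 2338 and 1120, -0.94 ± 0.23, adjusted p = 0.00725), and so were Cdh5, VE-cadherin (321.3 and 342.2 against 769.8 and 761.9, -1.29 ± 0.27, adjusted p = 0.00137), Jam2 (-3.95 ± 0.63) and Esam (10.4 and 108.6 against 443.4 and 476.8, -2.91). Gap43, a growth-associated membrane protein best known in neurons, stood at 777.4 and 358.5 CPM against 54.0 and 18.8 in blood endothelium (3.95 ± 0.38) and 13.1 and 1.05 in mesenchyme (6.50 ± 0.45). Fgl2, a fibrinogen-like protein, stood at 580.5 and 1152 CPM against 19.9 and 44.7 in blood endothelium (4.64 ± 0.34, adjusted p = 3.74e-10), 2.38 and 2.11 in mesenchyme (8.5 ± 0.44) and 0 and 43.8 in macrophages (4.81 ± 0.48). Of basement membrane genes, Col4a1 did not pass against blood endothelium (-0.32, adjusted p = 0.619) or mesenchyme (-0.46, adjusted p = 0.263), and Lama4, a laminin chain, was higher than in blood endothelium (217.7 and 222.7 against 41.9 and 43.5, 2.27 ± 0.36) and did not pass against mesenchyme (-0.28, adjusted p = 0.621).

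**Figure D3:**
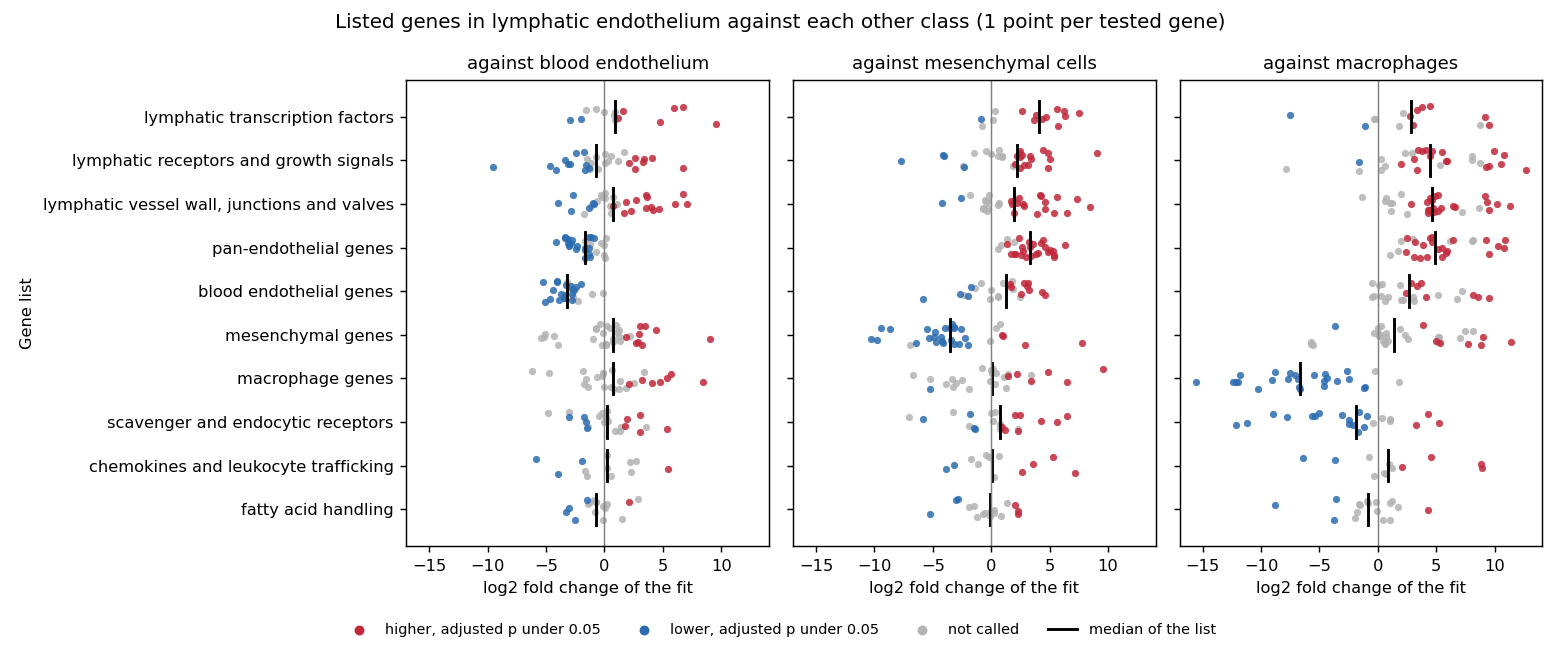
Log2 fold changes of the genes of 10 lists in the 3 comparisons, 1 panel each (lymphatic cells against blood endothelium, mesenchymal cells and macrophages), with higher genes in red, lower in blue, genes that were not called in grey, and a black bar at each list's median. Of the 28 pan-endothelial genes 20 lie below 0 as called genes against blood endothelium, and 24 and 21 above 0 against mesenchyme and macrophages.

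Genes of endothelium in general were present in the lymphatic cells, below their levels in blood endothelium. None of 28 pan-endothelial genes was higher and 20 were lower than in blood endothelium (median -1.66), while 24 were higher than in mesenchyme (median 3.29) and 21 higher than in macrophages (median 4.88), with 0 lower in both. Pecam1 (CD31) stood at 248.8 and 309.6 CPM against 713.6 and 994.8 in blood endothelium (-1.70 ± 0.28, adjusted p = 7.33e-05) and was higher than in mesenchyme by 4.26. Egfl7, an endothelial matrix protein, stood at 725.6 and 635.5 against 1544 and 1464 (-1.24). Ecscr, an endothelial motility protein, did not pass (445.7 and 423.7 against 554.8 and 330, -0.06, adjusted p = 0.994), nor did the ETS factor Fli1 (-0.27, adjusted p = 0.711). Ptprb, the phosphatase that restrains Tek (62.2 and 168.4 against 742.3 and 1096, -3.05), and S1pr1, a sphingosine 1-phosphate receptor (41.5 and 255.3 against 290.1 and 591.9, -1.65), were lower.

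Genes of blood vessels were lower or not called. Of 24 tested blood endothelial genes outside the gate, 0 were higher and 19 lower than in blood endothelium (median -3.24). Ly6a (Sca-1) stood at 10.4 and 54.3 CPM against 1011 and 1252 (-5.12 ± 0.41, adjusted p = 1.29e-09). Epas1, a hypoxia-inducible factor of lung vessels, stood at 93.3 and 124.9 against 912.1 and 1179 (-3.41 ± 0.33), Cd34 at 62.2 and 32.6 against 315.4 and 250.7 (-2.77), and Ednrb, an endothelin receptor, at 134.7 and 119.5 against 462.1 and 1146 (-2.75). Foxf1, the factor of lung capillary growth (-3.91), Tbx3 (-4.64), Aplnr, the apelin receptor (-4.07), and Kit (-3.28) were lower as well. Vwf, the platelet-binding factor, did not pass with all cells (-0.13, adjusted p = 0.92) and had a difference of -3.68 with the 49 cells. The same 24 genes were higher in 9 and lower in 4 cases against mesenchyme, and in 4 and 4 with the 49 cells, where the median moved from 1.31 to -0.60.

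Among all genes at 100 CPM or more in both batches of the higher class, those with the largest differences from blood endothelium included secreted and membrane proteins as well as platelet genes. Ptx3, a secreted pentraxin, stood at 435.3 and 336.8 CPM against 2.21 and 0 (9.47 ± 0.67), and Thy1 (chr9:44043384-44048579) at 207.3 and 287.9 against 1.1 and 0.207 (9.05 ± 0.71, adjusted p = 1.44e-09). Fxyd6, a regulator of the sodium pump, stood at 352.4 and 277 (9.48), and AA467197 at 342.1 and 211.8 against 0 and 0.207 (9.83 ± 0.74). Bin2, Ppbp, Gp9, Pf4 and Rgs18 were also among these 10, and between 98.3% and 100% of their lymphatic UMIs lay in the 3 platelet-gene cells. Genes with the largest differences in the other direction were Rasgef1a (0 against 239.3 and 140.8 CPM, at least 7.70-fold and 8.64-fold lower), Arl4d (0 against 120.2 and 120.7, at least 3.87-fold and 7.41-fold), Sema3g, an arterial semaphorin (0 against 114.7 and 117.4, at least 3.69-fold and 7.20-fold), Slco2a1, the prostaglandin transporter (0 and 5.43 against 223.9 and 258.2, -6.27 ± 0.77), Cxcl12 (20.7 and 0 against 469.8 and 372.2, -5.91 ± 0.61) and Ceacam1 (10.4 and 0 against 142.3 and 171, -5.52 ± 0.88).

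Mesenchymal genes were mostly below their mesenchymal level, with a few shared. Of 32 tested mesenchymal genes outside the gate, 4 were higher and 24 lower than in mesenchymal cells (median -3.52), 9 higher and 0 lower than in blood endothelium (median 0.73), and 7 higher and 1 lower than in macrophages (median 1.36). With the 49 cells, 5 genes were higher than in blood endothelium and the median was -0.21. Tcf21, the factor of matrix fibroblasts, stood at 51.8 and 5.43 CPM against 2112 and 1298 in mesenchyme (-6.41 ± 0.41, adjusted p = 1.14e-11), Gsn, an actin-severing protein, at 176.2 and 59.8 against 1751 and 1456 (-4.13), and Dcn, decorin, at 10.4 and 0 against 226.6 and 74.6 (-5.32). The PDGF receptors were at 0 in every lymphatic cell, Pdgfra against 90.4 and 111.2 CPM in mesenchyme (at least 2.91-fold and 6.82-fold lower) and Pdgfrb against 30.3 and 108.3 (at least 6.65-fold lower in Batch 2), and so was Wnt2 (96.4 and 36.6, at least 3.10-fold and 2.25-fold lower). Acta2, smooth muscle actin, had 22 UMIs in Batch 1 and 1 in Batch 2. It was higher than in blood endothelium with all cells (2.96) and not with the 49 (-6.82, adjusted p = 0.293).

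Of the growth factor genes, Igf2 was higher than in mesenchyme, and Igf1 and Gas6 did not pass against it. Igf2 stood at 932.9 and 2520 CPM, against 83.8 and 195.4 in blood endothelium (3.50 ± 0.26, adjusted p = 3.84e-10), 127.9 and 250.3 in mesenchyme (2.90 ± 0.25) and 0 and 11 in macrophages (7.76 ± 0.50), with no overlap between the lymphatic and the other values within or across batches. Igf1 stood at 145.1 and 168.4 CPM against 6.62 and 6.83 in blood endothelium (4.42 ± 0.42, adjusted p = 2.55e-08), and did not pass against mesenchyme (149.9 and 139.4, -0.07, adjusted p = 0.921) or macrophages (129.1 and 82.2, 0.63, adjusted p = 0.423). Gas6, the ligand of the TAM receptors, showed a like order (103.7 and 114.1 against 14.3 and 8.90 in blood endothelium, 3.25 ± 0.49) with 0.75 against mesenchyme (adjusted p = 0.237) and 0.15 against macrophages (adjusted p = 0.92). Timp3, a metalloproteinase inhibitor, was higher than in mesenchyme (0.96, adjusted p = 0.0058) and macrophages (4.94), at 549.4 and 1765 CPM. Thy1, which fibroblasts carry in many tissues, was at 1.79 and 0.527 CPM in these mesenchymal cells (7.75 ± 0.63), and at 0 in macrophages.

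The 6 genes with the largest differences below mesenchyme included oxidases of the matrix and patterning genes. Ptgis, prostacyclin synthase (161.2 and 187.1 CPM in mesenchyme, at least 5.18-fold and 11.5-fold lower), Sfrp1, a WNT inhibitor (136.8 and 205.2, at least 4.40-fold and 12.6-fold), Loxl1, an elastin cross-linking oxidase (243.3 and 121.5, at least 7.82-fold and 7.45-fold), Ism1 (107.7 and 192.6, at least 3.46-fold and 11.8-fold) and Tbx4, a lung mesenchyme factor (146.9 and 107.5, at least 4.73-fold and 6.60-fold), were at 0 in all 68 lymphatic cells. Lox, the lysyl oxidase, stood at 10.4 and 5.43 against 334.9 and 1203 (-7.05 ± 0.55, adjusted p = 3.17e-10). In the other direction, Flt4, Fgl2, Ptx3 (8.60 ± 0.61) and Klhl4, a kelch-like adaptor (176.2 and 228.1 CPM, 9.43), stood with the platelet genes Ppbp, Pf4, Gp9, Rgs18, F5 and Clec1b.

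Most genes of the macrophage were low or not counted in lymphatic cells. The lymphatic gate left out cells with Ptprc and the macrophage gate did not. The low values are thus partly set by the choice of cells. Of 26 tested macrophage genes outside the gate, 0 were higher and 24 lower than in macrophages (median -6.71), while 7 were higher than in blood endothelium and 6 higher than in mesenchyme. With the 49 cells 2 and 1 were higher. Ctss, a lysosomal protease, was at 0 in all lymphatic cells against 3505 and 4734 CPM in macrophages, at least 112.7-fold and 290.5-fold lower (adjusted p = 5.72e-14). Csf1r, the receptor of macrophage growth, had 10.4 and 0 CPM against 535 and 312.3 (-6.79 ± 0.80, adjusted p = 8.02e-07), and Tyrobp, an immune signalling adaptor, 0 and 5.43 against 2472 and 1572 (-9.09 ± 0.53). Cd163, Aif1, Emr1 (F4/80), Ms4a7 and Mpeg1 were at 0 in every lymphatic cell, which put them at least 7.12-fold and 29.9-fold, 19.6-fold and 16.1-fold, 6.53-fold and 4.37-fold, 27.9-fold and 19.8-fold, and 14.2-fold and 15.5-fold below macrophages. Apoe, a lipid carrier, stood at 51.8 and 43.5 CPM in lymphatic cells, near its 47.4 and 48.0 in blood endothelium and below its 17490 and 21970 in macrophages (-8.82 ± 0.31, adjusted p = 1.12e-16). Genes at 0 with the next largest differences were Pla2g7 (701.1 and 1408 in macrophages, at least 22.6-fold and 86.4-fold lower), Ms4a6c (996.3 and 1090, at least 32.0-fold and 66.9-fold), the Fc receptor Fcgr3 (498.1 and 893, at least 16-fold and 54.8-fold), Wfdc17 (1218 and 487.6, at least 39.2-fold and 29.9-fold) and AI607873 (405.9 and 701.3, at least 13.1-fold and 43.0-fold).

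Most scavenger and endocytic receptors were lower than in macrophages, and a small set was higher than in blood endothelium. Of 22 tested, 5 were higher and 4 lower than in blood endothelium, 8 higher and 4 lower than in mesenchyme, and 3 higher and 15 lower than in macrophages (medians 0.18, 0.75 and -1.90). Mrc1 (CD206, chr2:14229392-14332057), the mannose receptor, stood at 134.7 and 293.3 CPM in lymphatic cells, against 5.51 and 5.59 in blood endothelium (5.34 ± 0.40, adjusted p = 4.46e-10), 1.19 and 2.64 in mesenchyme (6.52 ± 0.43) and 848.7 and 1337 in macrophages (-2.43 ± 0.31, adjusted p = 2.35e-06). It was counted in 8 of 26 and 17 of 42 lymphatic cells. Stab1, a scavenger receptor, stood at 290.2 and 298.7 CPM against 22.1 and 38.5 in blood endothelium (3.07 ± 0.41, adjusted p = 3.91e-06) and 405.9 and 345.2 in macrophages (-0.40 ± 0.41, adjusted p = 0.621). Cd63, a tetraspanin of lysosomes (373.1 and 521.5 against 66.2 and 40.2, 3.07 ± 0.33), Ctsb, a lysosomal protease (165.8 and 293.3 against 75 and 52, 1.90 ± 0.32), and Dab2, an endocytic adaptor (1.77 ± 0.44, adjusted p = 0.0069), were also higher than in blood endothelium. Cd36, a fatty acid receptor of capillaries, and Cav1, the coat protein of caveolae, were lower than in blood endothelium (124.4 and 217.3 against 1331 and 1402, -3.04 ± 0.32, and 476.8 and 537.7 against 1480 and 1759, -1.77). Lrp1, an endocytic receptor, was at 10.4 and 0 CPM and lower than in mesenchyme (191.5 and 183.9, -5.85 ± 0.84) and macrophages (-5.68).

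Chemokine and lipid genes were called in both directions. Of 12 tested chemokine and trafficking genes outside the gate and its copies, 1 was higher and 3 lower than in blood endothelium, 4 higher and 2 lower than in mesenchyme, and 4 higher and 2 lower than in macrophages (medians 0.23, 0.04 and 0.86). The 1 was Il7, the lymphocyte survival cytokine, with 2 and 10 UMIs, or 20.7 and 54.3 CPM, against 0 and 1.24 (5.41 ± 1.02, adjusted p = 0.000489), which was too low to be tested in the 49 cells. Cd200, an inhibitory ligand for myeloid cells, was lower than in blood endothelium (373.1 and 755 against 1410 and 2559, -1.91) and higher than in mesenchyme (2.63) and macrophages (4.52). Spns2, the sphingosine 1-phosphate exporter, did not pass against blood endothelium (0.23, adjusted p = 0.866) and was higher than in mesenchyme (5.29). Of 17 tested genes of fatty acid handling, 1 was higher and 4 lower than in blood endothelium, 3 and 3 against mesenchyme, and 1 and 3 against macrophages (medians -0.75, -0.11 and -0.84). The 1 was Fabp4, a fatty acid carrier, at 549.4 and 776.7 CPM against 146.7 and 123 (2.1 ± 0.47, adjusted p = 0.00253), and Lpl, lipoprotein lipase, was lower (31.1 and 76.1 against 242.6 and 837.9, -3.28 ± 0.62). Over all tested genes 5.73% were higher and 5.32% lower than in blood endothelium. In lists of 12 and 17 genes, 1 higher gene thus does not set the list apart from all genes. On the lower side, 3 of 12 and 4 of 17 genes were a larger share than over all genes, and no set test was run.

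Genes of proliferation, stress and other cell types completed the lists. Of 15 tested cell cycle genes 3 were higher than in blood endothelium, 10 than in mesenchyme and 2 than in macrophages (medians 1.45, 2.33 and 0.00), with 0 lower, and with the 49 cells 0, 3 and 1 of 14 were higher. Of 14 tested immediate early and stress genes 1 was higher and 4 lower than in blood endothelium, 0 and 6 in mesenchyme and 0 and 10 in macrophages (medians -0.60, -1.02 and -2.25). In the 49 cells 7, 9 and 11 of these were lower and 1, 0 and 0 higher, with medians of -1.57, -1.95 and -3.08. Fos stood at 82.9 and 195.5 CPM against 28.7 and 529.6 in blood endothelium, 128.5 and 2243 in mesenchyme and 1273 and 3139 in macrophages, with the higher value in Batch 2 in every class. All 10 tested platelet genes were higher than in blood endothelium and in mesenchyme and 9 were higher than in macrophages (medians 7.57, 7.84 and 10.74). With the 49 cells 1 of them could be tested, and it was not higher in any comparison. Against blood endothelium, mesenchyme and macrophages, 0, 0 and 1 of 8 tested epithelial genes, 1, 1 and 1 of 5 mesothelial genes, and 0, 0 and 4 of 5 erythroid genes were higher. Lower were 1, 0 and 0 of the epithelial genes, 0, 3 and 0 of the mesothelial genes and none of the erythroid genes. In the 49 cells, 4, 4 and 0 of the 5 erythroid genes and 4, 3 and 0 of the 8 epithelial genes were lower, and none of either list was higher. Of lymphocyte genes 0 and of neural and Schwann cell genes 1 could be tested, the latter with no call. Of 4 nuclear-retained RNAs 1 was higher than in blood endothelium, Neat1 (373.1 and 347.6 CPM, 2.27), and 1 was higher and 2 lower than in mesenchyme.

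The genes higher than in all 3 other classes also held histone and platelet genes, and those named here were chosen after their values were seen. H19, the imprinted noncoding RNA beside Igf2, stood at 1949 and 1727 CPM with differences of 3.84 from blood endothelium, 2.46 from mesenchyme and 8.76 from macrophages. Gnas, the stimulatory G protein subunit, stood at 3565.7 and 3020.1 CPM with differences of 1.85, 1.07 and 3.25, and Gng11, a G protein gamma subunit, at 2653.5 and 2438.9 with 2.24, 3.07 and 8.0. Mmp14, a membrane metalloproteinase, stood at 528.6 and 526.9 with 1.95, 0.95 and 3.43, and Col18a1, the collagen that yields endostatin, at 186.6 and 309.6 with 3.04, 3.02 and 11.38. Lcn2, an iron-carrier binding protein, differed between batches (51.8 and 363.9 CPM). Tshz2, a zinc finger factor (300.6 and 353.1 CPM), had 3.67, 0.93 and 5.2. Tspan18 (404.2 and 385.7 CPM) and Pard6g (290.2 and 369.4 CPM), a polarity protein, were among the genes with the largest differences from macrophages, in which both were at 0. Of these, Tspan18 was not among the genes higher than in all 3 classes, and blood endothelium had it at 233.8 and 237.9 CPM.

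Sharing was also described by level alone, with no test, for the 2958 genes with at least 3 lymphatic UMIs in Batch 1 and 10 in Batch 2. A gene was called shared with a class where its CPM there was at least 0.5 times the lymphatic CPM in both batches, and low where it was at most 0.1 times in both. The rule sets no upper limit, so that a shared gene can be far higher in the other class. Laptm5, for example, counts as shared with macrophages at 51.8 and 59.8 CPM against 1273 and 953.3 there. By this rule 2299 genes were shared with blood endothelium and 86 low in it, 1961 were shared with mesenchyme and 142 low, and 1560 were shared with macrophages and 250 low. All 3 classes shared 1224 genes, among them Malat1, Actb and ribosomal protein genes. Low in all 3 were 41 genes, including Fgl2, Flt4, Pard6g, Gap43, Ptx3, Thy1, Klhl4 and Nts, the neurotensin precursor (145 and 190 CPM), and with the 49 cells 20 genes were low in all 3, these 8 among them. Itga2b, Clec1b and Gp1bb, which are platelet genes, were too low to be placed in the 49 cells.

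Shared with blood endothelium and low in both other classes were 31 genes. They included Ece1, the endothelin-converting enzyme (404 and 1043 CPM against 387 and 690 in blood endothelium and 31.5 and 47.7 in mesenchyme), Cldn5, Egfl7, Prss23, a serine protease (197 and 521 against 172 and 287), Ecscr, Kdr, Cdh5 and Tie1. Shared with blood endothelium and mesenchyme and low in macrophages were 29 genes, led by matrix and cytoskeletal genes: Sparc (1016 and 1135 CPM, 2018 and 1728 in blood endothelium, 3710 and 3221 in mesenchyme), Sptbn1, Col4a1 (466 and 646, 651 and 623, 466 and 892), Ptrf, the caveolar coat protein cavin, Fstl1 and Nfib, a nuclear factor of lung development. Only 4 genes were shared with blood endothelium and macrophages and low in mesenchyme, namely Srgn, a proteoglycan of secretory granules, Gmfg, Smagp and Prcp.

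Fewer genes were shared with the non-endothelial classes and low in blood endothelium. Shared with mesenchyme and macrophages were 2 genes, Rnase4, a secreted ribonuclease (114 and 174 CPM, against 9.93 and 15.9 in blood endothelium, 128 and 157 in mesenchyme and 351 and 258 in macrophages), and Cd302, a C-type lectin receptor (145 and 109, against 11 and 6.63, 174 and 241, and 258 and 422). Both stayed in the pattern with the 49 cells. Shared with macrophages alone were 5 genes, Pf4, Mrc1, Cd84, Laptm5 and F13a1, and with the 49 cells Mrc1 was the 1 that stayed, the others falling under the minimum of UMIs. Shared with mesenchyme alone were 0 genes. Igf1 was low in blood endothelium, shared with mesenchyme and between the limits in macrophages, and Maf was low in blood endothelium, between the limits in mesenchyme and shared with macrophages.

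**Figure D4:**
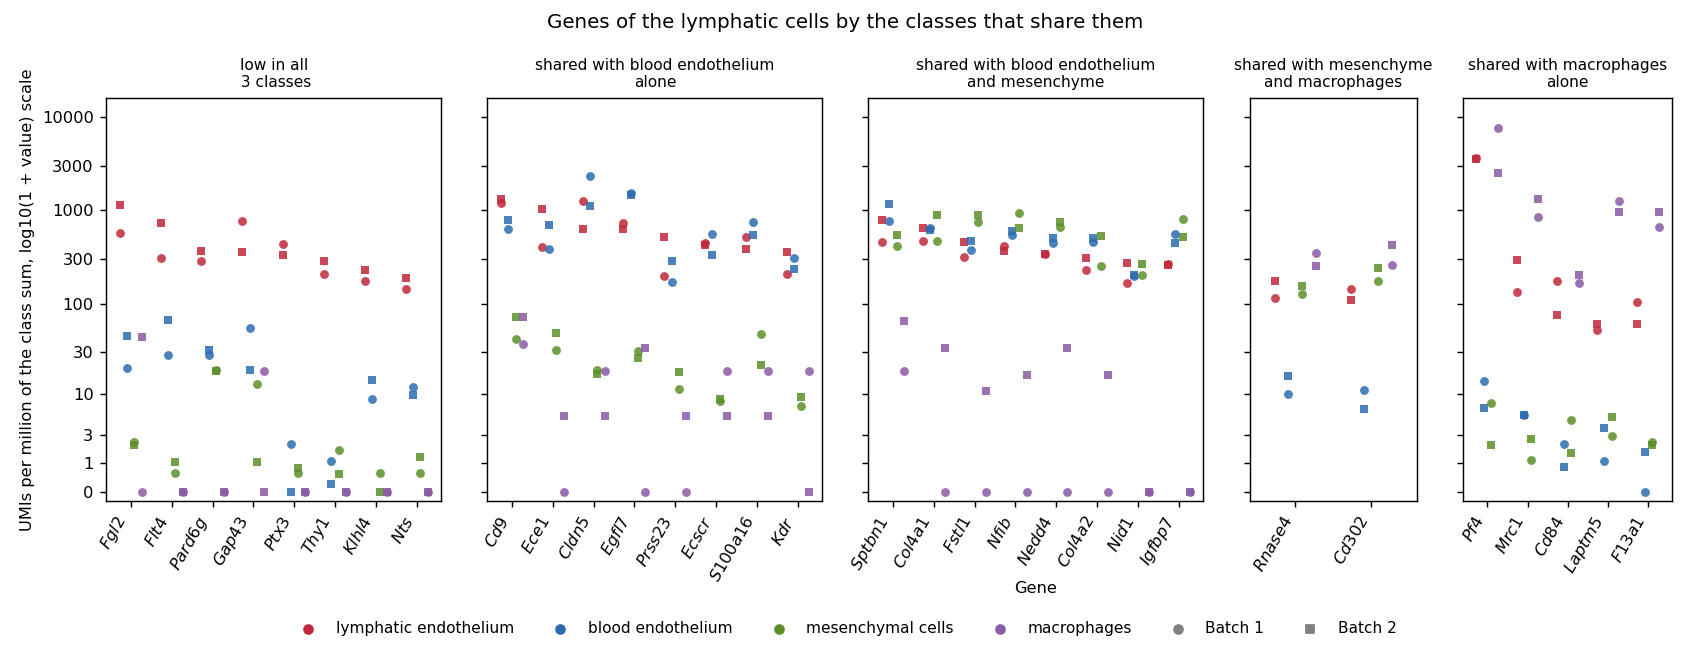
CPM on a log10(1 + value) axis of genes by sharing pattern in the 4 classes, with a circle for Batch 1 and a square for Batch 2, in panels for genes low in all 3 other classes, shared with blood endothelium alone, with blood endothelium and mesenchyme, with mesenchyme and macrophages, and with macrophages alone. Mrc1 stands at 134.7 and 293.3 CPM in lymphatic cells and below 6 in blood endothelium and mesenchyme, and Rnase4 and Cd302 lie at 9.93 and 15.9 and at 11 and 6.63 CPM in blood endothelium alone.

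Lymphatic cells with over 10% of UMIs from mitochondrially encoded genes came from Batch 2 alone. There, 11 of 42 lymphatic cells were over the limit (26.2%, 13.9 to 42), against 302 of 1565 blood endothelial cells (19.3%, 17.4 to 21.3), 408 of 1834 mesenchymal cells (22.2%, 20.4 to 24.2), 25 of 76 macrophages (32.9%, 22.5 to 44.6) and 1940 of all 7555 cells (25.7%). The lymphatic interval holds the values of all these groups. In Batch 1, 0 of 26 lymphatic cells and 1 of all 2389 cells were over it. The percentage had a median of 1.92 and a highest value of 8.25 in the lymphatic cells of Batch 1, and of 6.08 and 17.9 in Batch 2, so that none was over 20% (0 of 42, upper bound 8.41%). The 11 cells over the limit were shallower than the 31 under it, with a median of 3095 UMIs and 1390 genes against 4120 UMIs and 1789 genes. Both sets come from 1 library, so the values that follow have no replicate and no test, and their intervals are exact Poisson intervals of the summed UMIs. Such intervals leave out the spread between cells, so that a few cells can set them apart.

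Lyve1 and Flt4 were counted at higher levels in the cells over the limit. In CPM of nuclear-encoded UMIs, Lyve1 stood at 9989 (8956 to 11110) over the limit and 6121 (5716 to 6548) under it, and Flt4 at 1234 (889.4 to 1668) and 680.1 (549.6 to 832.3), with intervals that do not overlap. Flt4 was counted in 11 of 11 and 25 of 31 cells, and after each cell was thinned to 600 UMIs in 6 of 11 and 9 of 31. Tie1 stood at 528.9 (313.4 to 835.8) against 166.4 (105.5 to 249.7), Mrc1 at 675.8 against 224.3, Itga9 at 411.3 against 115.8 and Ptx3 at 763.9 against 260.5. Reln (499.5 and 376.2) had overlapping intervals. The gate genes Mmrn1 (2556 and 998.5) and Prox1 (499.5 and 477.5) were used to choose the cells, and their values are a description. With the cells below the cut-offs for other types, 8 over and 23 under the limit, Lyve1 stood at 10380 (9076 to 11818) against 6449 (5913 to 7020) and Mrc1 at 819.4 (485.7 to 1295) against 314.6 (205.5 to 460.9). Mrc1 was counted in 4 of the 8 and 11 of the 23 cells, and of its 18 UMIs over the limit single cells held 8 and 7. In these cells the intervals overlapped for Flt4 (1229, 810 to 1788, against 871.1, 681.6 to 1097), Tie1 (637.3, 348.4 to 1069, against 242, 147.8 to 373.7), Itga9 (409.7, 187.4 to 777.8, against 108.9, 49.8 to 206.7) and Ptx3 (910.5, 556.2 to 1406, against 399.3, 274.8 to 560.7).

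Over the 1636 genes with at least 20 UMIs in both sets together, 140 (8.56%) were 2-fold or more higher and 214 (13.1%) 2-fold or more lower in the cells over the limit, with a median ratio of 0.992. Among the higher genes, Atraid had a ratio of 9.48 (14 against 6 UMIs), Tram1, of protein translocation, 6.09, Gm20594 5.87, Nts 4.82 and Akap9 4.64. With the cells below the cut-offs, Nts stood at 136.6 CPM over the limit and 157.3 under it (3 and 13 UMIs), which turns its direction. Among the lower ones were Pf4 (1 against 652 UMIs, the platelet-gene cells being under the limit) and the histone genes Hist1h2ap (1 against 105 UMIs) and Hist1h2ao (2 against 102). Under the limit Hist1h2ap was counted in only 8 of 31 cells and Hist1h2ao in 6. With the cells below the cut-offs, these 2 genes had 37 and 36 UMIs under the limit, each in 3 of 23 cells. Ribosomal protein genes summed to 119609 CPM over the limit and 147958 under it. Of the mitochondrial transcripts, the ribosomal RNAs mt-Rnr1 and mt-Rnr2 made up 99574 CPM of all UMIs over the limit and 34541 under it, and the 13 messenger RNAs 22004 and 14236. H19 was at 1205 against 2004 and Igf2 at 4231 against 2315 CPM of nuclear-encoded UMIs. With the cells below the cut-offs the H19 intervals overlapped (1684, 1186 to 2322, against 2226, 1916 to 2572), and Igf2 stood at 5554 against 2928. Per cell, Igf2 had medians of 26.9 over and 26.5 under the limit per 10000 nuclear-encoded UMIs with all cells. With the cells below the cut-offs the medians were 40.2 and 27.0. The part that cell state, dissociation or droplet content had in these values was not tested.

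**Figure D5:**
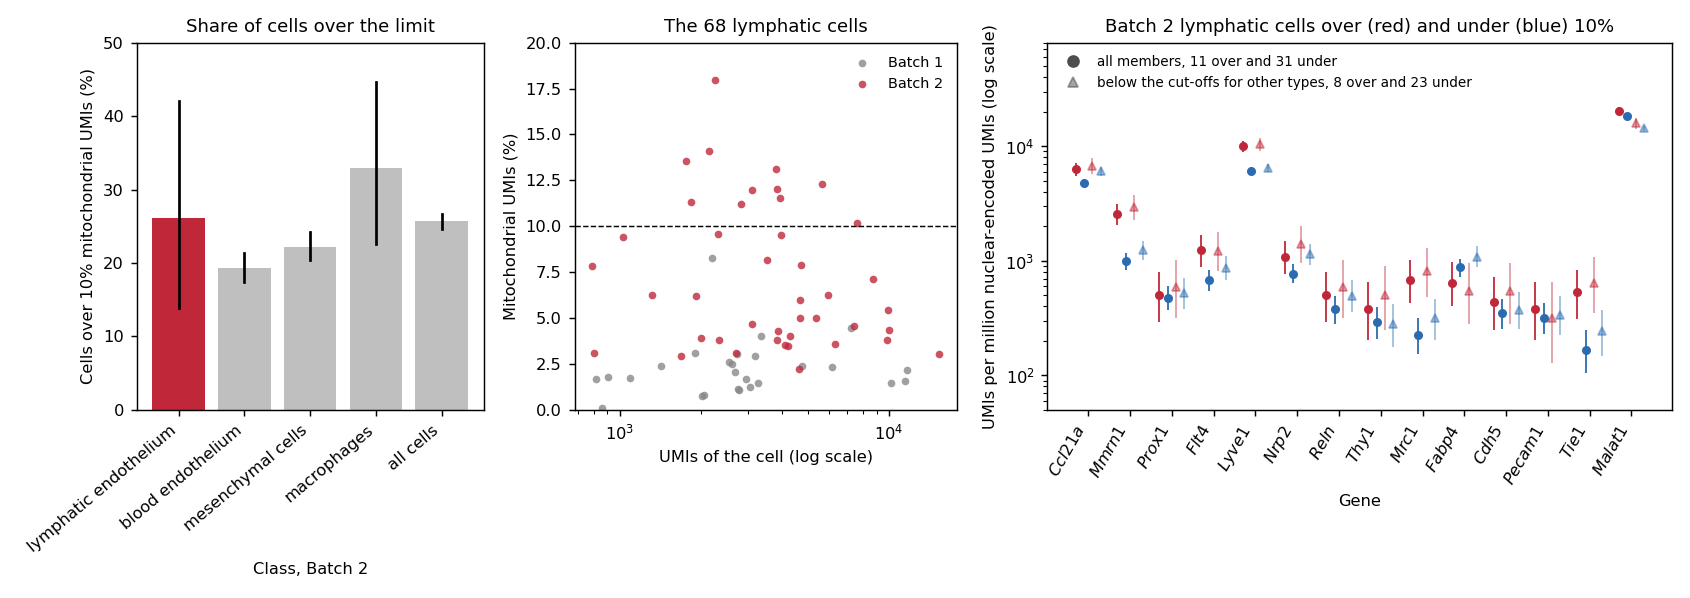
Left, the percentage of Batch 2 cells over 10% mitochondrial UMIs by class with exact 95% intervals; middle, the percentage of mitochondrial UMIs against total UMIs (log axis) of the 68 lymphatic cells with a dashed line at 10%; right, CPM of nuclear-encoded UMIs over (red) and under (blue) the limit, with circles for all cells (11 and 31), triangles for cells below the cut-offs for other types (8 and 23) and exact Poisson intervals. The 26.2% of lymphatic cells lies among 19.3% to 32.9% of the other classes, and Lyve1 and Flt4 stand higher over the limit, with overlapping Flt4 intervals among the triangles.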

How the data were processed

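Unique molecular identifiers were counted in whole lung cells of 2 mice. The authors aligned the Drop-seq reads to mm10 with Bowtie2 2.2.7, reporting 1 alignment a read, and deposited counts of UMIs per gene and cell over exons with no normalization and no mitochondrial limit. All columns of cells in both matrices were used. Classes were cut by marker genes as described, and cells that passed the gates of more than 1 comparison class, or of the lymphatic class, entered no comparison class. Counts were summed by class and batch (8 sums), normalized by TMM, filtered with filterByExpr and fitted in 1 edgeR 4.0.16 quasi-likelihood model (R 4.3.3) with the batch as a block, which left 3 residual degrees of freedom. Benjamini-Hochberg adjusted p under 0.05 was called, and gate genes and the copies of Ccl21a were left out. The block pairs sums of the same mouse. Deviations of same-batch sums from the class means correlated with r from 0.0794 to 0.492 (median 0.172, 6 pairs, 8967 genes). A fold against a class at 0 was taken against 3 UMIs in that library.

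In simulated counts of 8361 genes, 79.1%, 81.4% and 55.8% of genes changed by a log2 fold change of 3 were found against blood endothelium, mesenchyme and macrophages, and 13.0%, 10.9% and 6.52% of those changed by 1. The changed genes were drawn above a minimum of expected UMIs over all sums. The simulated classes had a common profile and a common dispersion, unlike the real ones, so these rates may not hold for the real sums. The members and the 19 gene lists (lymphatic transcription factors, receptors and growth signals, vessel wall, scavenger, pan-endothelial, blood endothelial, mesenchymal, macrophage, chemokine, fatty acid, cell cycle, platelet, epithelial, mesothelial, erythroid, lymphocyte, neural, immediate early and nuclear-retained) were chosen with earlier results of these data known. Genes named outside the lists were the 10 with the largest positive and the 6 with the largest negative difference per comparison among those called with at least 100 CPM in both batches of the higher class and the same direction in both batches, up to 6 of the highest lymphatic CPM in each sharing pattern, and the 5 largest in each direction across the mitochondrial limit. A few more, such as H19, Gnas, Gng11, Mmp14, Col18a1, Lcn2 and Tshz2 among the genes higher than in every class, were chosen after their values were seen. Alternatives were no replicate block, DESeq2 1.42.0, RLE size factors, no gene filter, 2 classes only, other gates, a mitochondrial limit of 10%, cells thinned to 600 UMIs, each batch alone and, chosen after the data were seen, members with platelet genes (at least 5 UMIs) or with any other type's genes (another gate passed, platelet genes, or at least 100 UMIs of Sftpc) left out. Other steps used Python 3.11.15, numpy 2.4.6, matplotlib 3.10.9, scipy 1.17.1 and pandas 2.3.3. Coordinates are those of GENCODE for GRCm38, the build of mm10. Some listed genes are not reported by name here.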

Additional observations from a re-analysis of the deposited data

How the results depend on the processing

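With 1 mouse per batch, 68 cells and few UMIs per gene, differences of genes under about 100 CPM rest on a handful of UMIs, and none of the tests says how mice vary beyond these 2. Without the replicate block, that is without the pairing of sums from the same mouse, 311 genes were higher and 185 lower than in blood endothelium, 515 and 428 than in mesenchyme, and 409 and 347 than in macrophages, and none of the 48 named gene results lost its call. With all cells thinned to 600 UMIs the counts were 95 and 183, 181 and 297, and 150 and 151. DESeq2 called 270 genes lower than in blood endothelium and 510 lower than in mesenchyme, and a fit of 2 classes alone called 383 higher than in macrophages. Without the members past a cut-off for another type, an alternative chosen after seeing the data, 302 genes were higher than in blood endothelium and 520 higher than in mesenchyme. The share of lymphatic cells was then 0.493%, the genes shared with blood endothelium, mesenchyme and macrophages were 1286, 1105 and 914, those low in them 44, 75 and 146, and 73 and 117 genes were 2-fold higher and lower over the mitochondrial limit. Without the platelet-gene members 52 genes were low in blood endothelium. The share was 0.556% to 1.09% over single batches, 0.815% with a gate of 2 UMIs, 0.583% with a gate of 5 and 0.712% with cells of at most 10% mitochondrial UMIs. Without the members past a cut-off Bin2 had a difference of -1.67 from blood endothelium. Of 674 alternative values of the 48 named gene results, 662 kept direction and side of the threshold, 11 lost the call and Bin2 alone reversed. An alternative in which a gene could not be tested is not among the 674. Ppbp, Gp9, Rgs18, F5, Gp1bb, Clec1b and Itga2b could not be tested once the platelet-gene members were left out. Their kept calls thus rest on alternatives that hold those members. Calls were lost for Arl4d, Ceacam1, Sema3g, Clec1b, Itga2b, Itgb3, Pf4 and Bin2 in at least 1 alternative. With no gene filter the median over all genes moved to -0.71 and -1.09 against blood endothelium and mesenchyme. Thinned sums hold fewer UMIs and reduced groups fewer cells, and the causes of these shifts were not tested.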
